A study of Rattus norvegicus with 4 samples.

Results

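The genes of the fibrillar collagens and of collagen maturation were followed across 4 Affymetrix rat expression arrays of heart muscle cells in culture. They were Col1a1, Col1a2, Col3a1, Col5a1, Col5a2, Col5a3, Lox, Loxl1, Plod1 and Pcolce, and every probe set annotated with 1 of these symbols and no other was taken. All 10 genes were present among the 10411 named on the array, with 15 of the 15875 probe sets in the table. Each array held total RNA from a culture labelled NRVM, which stands for neonatal rat ventricular myocytes, heart muscle cells taken from newborn rats. The 2 fibronectin samples were plated on fibronectin-coated plates, where the coat is a matrix glycoprotein bound by integrin receptors. The 2 control samples were plated on uncoated plates, and both groups had 24 h with 10% serum followed by 48 h in medium without serum. The labels give neither the strain nor the number of hearts. They also do not say whether replicates were grown separately, so the p-values reflect spread that could be technical.

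Fibrillar collagens are secreted as procollagen, in which 3 chains wind into a triple helix, and assemble outside the cell into the fibrils that give tissue its tensile strength. Type I collagen joins chains from Col1a1 and Col1a2, type III is built from Col3a1 alone, and type V, from Col5a1, Col5a2 and Col5a3, helps to start fibrils and limits their width. Plod1 hydroxylates lysines before secretion, Pcolce helps the enzyme that removes the carboxy-terminal propeptide, and Lox and Loxl1 oxidise lysines so that neighbouring molecules become cross-linked. In the heart, fibroblasts are known as the main source of these transcripts, and cultures of ventricular myocytes usually hold some of them.

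RefSeq promoter windows of build GRCr8 were found for 7 of the 10 genes and are shown to place the motifs of the collagen chain genes among them. The 250 bases before the annotated start were searched on both strands for CCAAT and for TATAAA, and no match of one overlapped a match of the other. CCAAT matched in 2 of the 7 windows, against 34% of 33469 rat windows of the same length, and TATAAA in 1 of 7, against 12.9%. Below are positions -250 to -151 of the 2 windows with a match, counted so that -1 is the base before the start, with the matches in capitals. Col1a2 lies at chr4:33518307-33518406 on the plus strand, with CCAAT as its reverse complement at -221 and TATAAA at -170, and Col5a3 at chr8:27626099-27626198 on the minus strand, with CCAAT at -182.
Col1a2: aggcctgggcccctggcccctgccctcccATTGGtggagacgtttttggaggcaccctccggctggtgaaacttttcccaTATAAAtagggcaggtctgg
Col5a3: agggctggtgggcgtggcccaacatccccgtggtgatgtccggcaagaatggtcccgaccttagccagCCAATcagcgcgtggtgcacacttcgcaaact
These matches describe the letters only, and no binding was measured. In the same annotation Col3a1 and Col5a2 are neighbours on chromosome 9, with 0 genes between them.

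Overall similarity did not group the arrays by coating, whereas ratios of 3' to 5' signal did. Across the 9519 tested probe sets, log2 signals correlated at 0.792 between the fibronectin arrays and at 0.910 between the controls, and fibronectin replicate 1 correlated at 0.904 with control replicate 1. The Gapdh control transcript had ratios of 3' to 5' signal of 6.02 and 3.52 on fibronectin replicates 1 and 2, against 1.64 and 1.15 on control replicates 1 and 2. For beta-actin these ratios were 13.0 and 6.29 on fibronectin and 1.46 and 1.40 on control. As both transcripts separate the groups, such a difference in the RNA and the coating cannot be told apart in any value below. Signals are given below on 2 scales, as deposited intensity and as log2 intensity after quantile normalization, which gives all arrays the same distribution. Normalized values under a floor of 23.4, or 4.55 on the log2 scale, were raised to it. Differences and overlap on the deposited scale used a floor set by the same rule, while deposited intensities are printed without it. Every fold, difference and test is on the normalized log2 scale unless the deposited scale is named.

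No collagen or maturation gene passed the test, and the direction of the type I and type III signals depended on the scale. After normalization 4 of the 5 probe sets of Col1a1, Col1a2 and Col3a1 had lower means on fibronectin, with a median log2 difference of -0.57. On the deposited scale the same 5 had a median difference of 0.034, with 3 means higher. Loxl1 had higher means on both scales, by 0.42 normalized and 0.49 deposited, though its groups overlapped as deposited. Means of Col5a3, Plod1, Pcolce and a probe set each of Col1a2 and Col5a1 were also higher on both scales.

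Of the 15 probe sets, 14 passed the filter that left out the dimmest 40% of probe sets, the exception being Col5a3. In limma's test 0 of these 14 passed the Benjamini-Hochberg threshold of 0.05, where 0% of all tested probe sets passed. The lowest adjusted p among them was 0.718. At an unadjusted p under 0.05 there was 1, a Col1a1 probe set, against 6.47% of tested probe sets. Fibronectin arrays lay below both controls for 3 of the 14 and above both for 1, against 19.0% lower and 19.3% higher among all tested probe sets. On the deposited scale 0 of the 14 lay below both controls and 2 above, against 12.6% and 20.5%. The 3 of 14 lower is near its background share, and the 1 of 14 higher is under it. The median difference over all 15 was -0.28, and 0.034 on the deposited scale. Over the 14 tested it was -0.35, beside -0.017 over all tested probe sets, and 0.010 on the deposited scale, beside 0.057. Counting the 10 genes by their brightest probe set, 5 had a higher and 5 a lower mean.

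**Figure D1:**
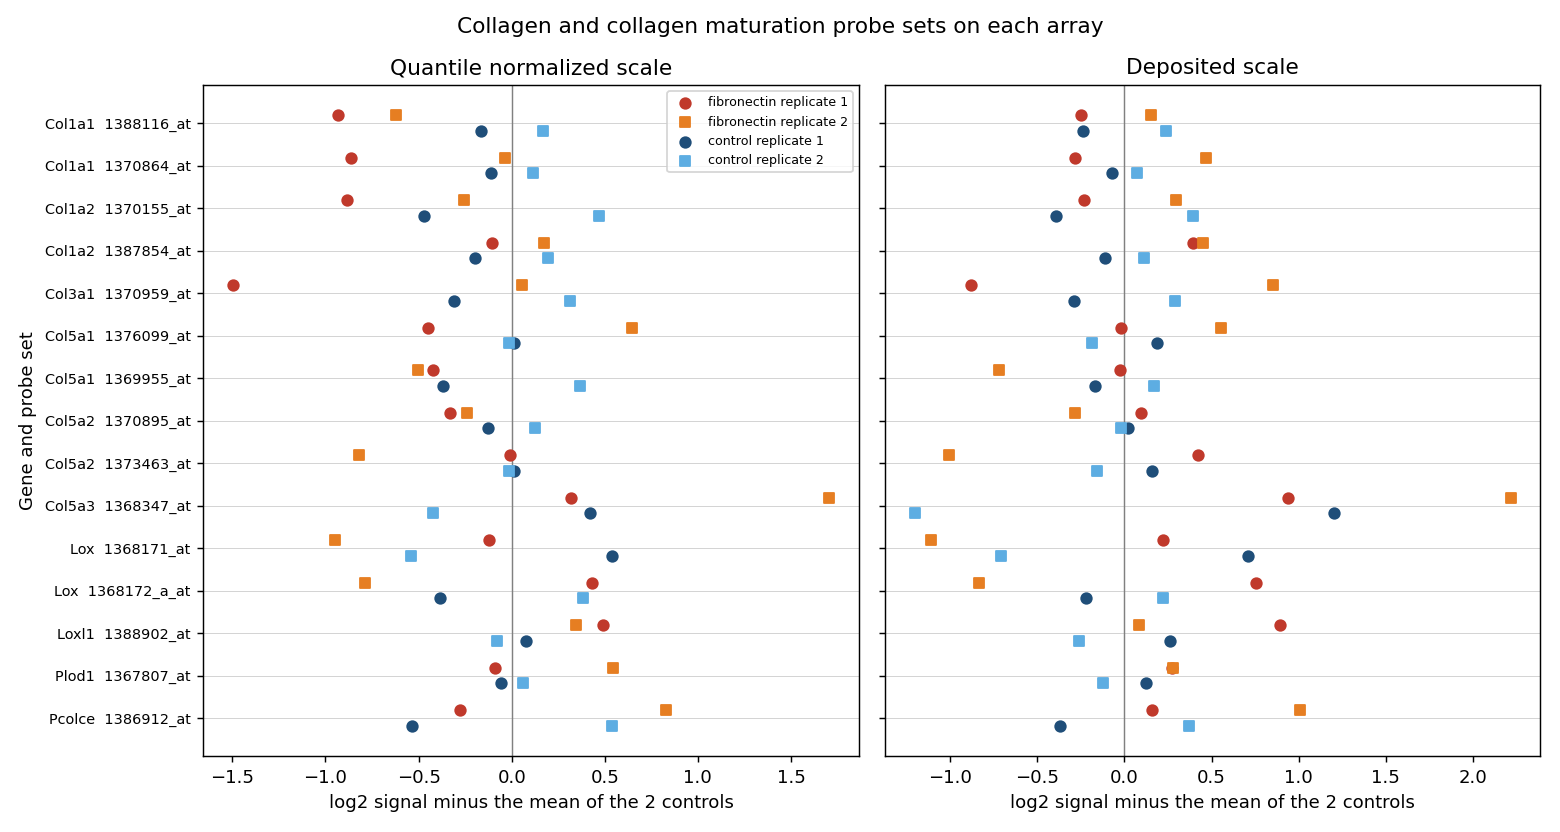
Log2 signal of each of the 15 probe sets on each array minus the mean of the 2 controls, after quantile normalization with the floor (left) and as deposited without a floor (right). Red and orange points are fibronectin replicates 1 and 2, dark and light blue points control replicates 1 and 2. After normalization both fibronectin points lie left of both control points for 3 probe sets and right of both for 1.

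Col1a1 encodes the alpha-1 chain of type I collagen. Its probe set 1388116_at had deposited intensities of 8958 and 11868 on fibronectin replicates 1 and 2, against 9042 and 12579.8 on control replicates 1 and 2. As deposited, the groups overlapped, and each fibronectin array lay slightly below the control of the same number. After normalization the log2 signals were 12.88 and 13.19 on fibronectin and 13.65 and 13.98 on control, so the groups no longer overlapped. The means were 13.04 ± 0.22 on fibronectin and 13.81 ± 0.23 on control (SD, n = 2 each). They differed by -0.78 (SE 0.26, 95% confidence interval -1.37 to -0.19), or 1.72-fold lower on fibronectin. This difference was 2.34 times the larger gap between replicates, yet limma's Benjamini-Hochberg adjusted p was 0.718, and on the deposited scale the difference was -0.049.

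The annotation derives the other Col1a1 probe set, 1370864_at, from the same source sequence. It had deposited intensities of 4156 and 7009 on fibronectin replicates 1 and 2, against 4815 and 5329 on the controls. Fibronectin replicate 1 was the lowest and fibronectin replicate 2 the highest of the 4. Normalized log2 signals were 11.74 and 12.57 on fibronectin and 12.49 and 12.72 on control. The difference was -0.45 (SE 0.32), and -0.038 without fibronectin replicate 1. On the deposited scale it was 0.092, so the sign of this probe set turned with the scaling.

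Col1a2 encodes the alpha-2 chain that pairs with the Col1a1 product, and its 2 probe sets also share a source sequence. Probe set 1370155_at had deposited intensities of 5779 and 8328 on fibronectin replicates 1 and 2, against 5149.5 and 8915 on the controls. Both fibronectin values lay between the 2 controls. The normalized log2 signals of 12.16 and 12.79 on fibronectin and 12.58 and 13.52 on control gave a difference of -0.57 (SE 0.37), or 0.034 as deposited. Probe set 1387854_at had deposited intensities of 5251 and 5462 on fibronectin, both above the 3690.4 and 4324 on the controls. Normalization removed that separation, since the log2 signals became 12.07 and 12.34 on fibronectin and 11.97 and 12.36 on control. Its difference was 0.034 (SE 0.27, 95% confidence interval -0.59 to 0.66) after normalization and 0.42 as deposited. The 2 probe sets of this gene thus gave different values on both scales.

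Col3a1, the gene of type III collagen, which forms thinner fibrils together with type I, gave the widest replicate gap among the fibronectin values. Deposited intensities of its probe set, 1370959_at, were 4482 and 14873 on fibronectin replicates 1 and 2, against 6739.6 and 10072 on the controls. The fibronectin arrays were thus the lowest and the highest of the 4, differing 3.32-fold between themselves, against 1.49-fold between the controls. The mean normalized log2 signal was 12.63 ± 1.10 on fibronectin and 13.35 ± 0.44 on control (SD, n = 2 each). The difference of -0.72 (SE 0.49, 95% confidence interval -1.85 to 0.41) became 0.055 without fibronectin replicate 1 and -1.50 without fibronectin replicate 2. On the deposited scale it was -0.013.

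The type V chains had no common direction. Col5a1 encodes the alpha-1 chain that most type V molecules contain, and its probe sets, which have different source sequences, disagreed. In 1376099_at deposited intensities were 985 and 1467 on fibronectin replicates 1 and 2, against 1138 and 880.4 on the controls. Here fibronectin replicate 2 stood above the other arrays, with log2 signals of 9.59 and 10.69 on fibronectin and 10.05 and 10.03 on control. In 1369955_at the same array was the lowest, with deposited intensities of 453 and 281 on fibronectin, against 410.3 and 520.5 on the controls. The differences were 0.10 (SE 0.39) for the first probe set and -0.46 (SE 0.37) for the other, whose normalized fibronectin signals of 8.50 and 8.42 lay below the control signals of 8.56 and 9.29. Without fibronectin replicate 2 the first became -0.45, and without control replicate 2 the other became -0.097.

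Col5a2 encodes the alpha-2 chain of type V. In 1370895_at it had deposited intensities of 1849 and 1419 on fibronectin replicates 1 and 2, against 1753 and 1707 on the controls. The 4 values stayed close, and after normalization the fibronectin signals of 10.54 and 10.63 lay just below the control signals of 10.75 and 11.00. The difference was -0.28 (SE 0.27, 95% confidence interval -0.91 to 0.34), or -0.095 as deposited. In 1373463_at fibronectin replicate 2 was low, with 608 against 1638 on fibronectin replicate 1, and the controls had 1366 and 1095. The log2 difference of -0.41 (SE 0.34) rested on that array, since without it the value was -0.0071. Its neighbour on the chromosome, Col3a1, had its highest deposited intensity on that same array.

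Col5a3, the third type V chain gene, had signals close to the floor. Its deposited intensities were 40.2 and 97.4 on fibronectin replicates 1 and 2, against 48.3 and 9.09 on the controls. Control replicate 2 was at the floor after normalization, and control replicate 1, at 5.40, lay between the fibronectin signals of 5.29 and 6.68. The mean difference of 1.01 therefore has no measured size, and the probe set was not tested.

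Of the enzymes and their helper, Loxl1 was the only one whose normalized groups did not overlap. This lysyl oxidase-like enzyme acts in cross-linking of collagen and elastin. Deposited intensities in 1388902_at were 712 and 407 on fibronectin replicates 1 and 2, against 459.6 and 321 on the controls. Each fibronectin array exceeded the control of the same number, but fibronectin replicate 2 lay below control replicate 1. Normalized log2 signals were 9.13 and 8.99 on fibronectin, above the 8.72 and 8.56 on control. The means of 9.06 ± 0.10 on fibronectin and 8.64 ± 0.11 on control (SD, n = 2 each) differed by 0.42 (SE 0.32, 95% confidence interval -0.32 to 1.15), with limma's Benjamini-Hochberg adjusted p = 0.785. With any 1 array left out the difference stayed between 0.34 and 0.50.

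Lox, the lysyl oxidase that starts collagen cross-links, was measured by 2 probe sets of the same source sequence that ranked the arrays differently. In 1368171_at deposited intensities were 398 and 158 on fibronectin replicates 1 and 2, against 557 and 209 on the controls, so both replicate 2 arrays were low. In 1368172_a_at they were 317 and 105 on fibronectin, against 161 and 219 on the controls, and both control values lay between the fibronectin values. The normalized differences were -0.53 (SE 0.49) and -0.18 (SE 0.54). The first became 0.0061 without control replicate 1, and the other 0.43 without fibronectin replicate 2.

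Plod1, a lysyl hydroxylase of the endoplasmic reticulum, had nearly equal deposited intensities of 411 and 413 on fibronectin, above the 370.1 and 313 on control. Normalization spread the fibronectin signals to 8.38 and 9.01, against 8.41 and 8.53 on control, and the groups then overlapped. Its difference was 0.23 (SE 0.36), or 0.28 as deposited. Pcolce, the procollagen C-endopeptidase enhancer, had deposited intensities of 1973 and 3556 on fibronectin replicates 1 and 2, against 1368 and 2288 on the controls. Both replicate 2 arrays lay above both replicate 1 arrays, in the normalized signals of 10.63 and 11.74 on fibronectin and 10.37 and 11.45 on control as well. The difference of 0.28 (SE 0.47) was smaller than the gap between replicates in either group, 2.15-fold on fibronectin and 2.10-fold on control, and became -0.28 without fibronectin replicate 2.

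**Figure D2:**
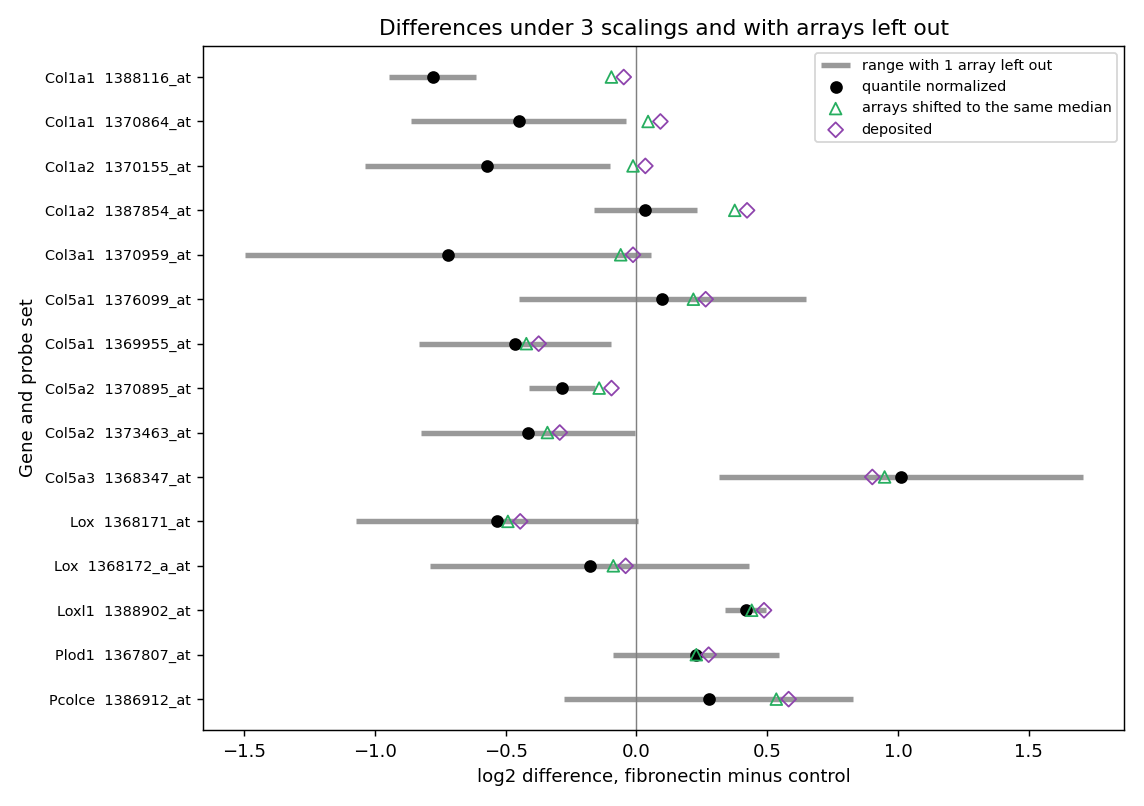
Log2 difference, fibronectin minus control, for each of the 15 probe sets under each scaling, all with a floor. Black is quantile normalization, green is arrays shifted to the same median and purple is the deposited scale. Grey bars give the range of the quantile normalized difference when 1 array is left out. The 5 type I and III probe sets move furthest between scalings, such as Col1a1 1388116_at at -0.78, -0.096 and -0.049, while Loxl1 stays at 0.42, 0.44 and 0.49.

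The gap between scales differed with the signal level. For the 15 probe sets, normalization moved log2 signals by between -0.36 and -0.040 on fibronectin replicate 1 and between -0.46 and 0.32 on fibronectin replicate 2. It moved them by between -0.20 and 0.51 on control replicate 1 and between 0.13 and 0.39 on control replicate 2. At the signals of the type I and III collagens the control arrays were raised and the fibronectin arrays lowered. Over all probe sets the median moves were -0.11 and 0.19 on fibronectin replicates 1 and 2 and -0.13 and 0.18 on control replicates 1 and 2. Shifting each array to the same median, which keeps its shape, left a difference of -0.096 for Col1a1 1388116_at and of -0.060 for Col3a1.

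**Figure D3:**
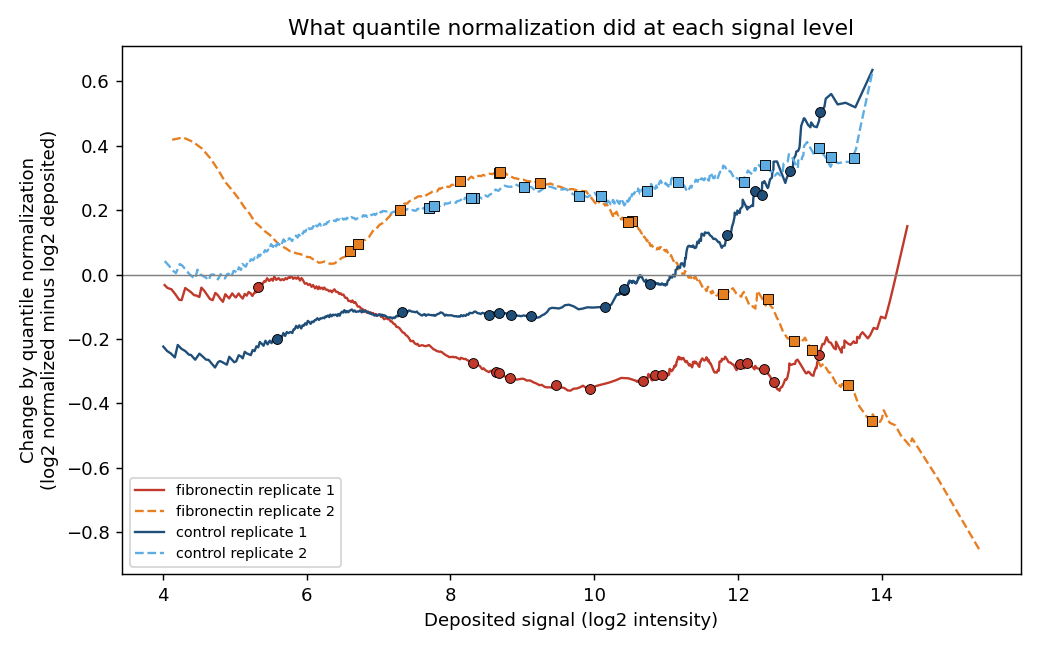
Change made by quantile normalization (log2 normalized minus log2 deposited) against deposited log2 intensity, with 1 line per array drawn above an intensity of 4 on the log2 scale and the collagen and maturation probe sets as points. At the right the control lines rise above 0 and the fibronectin points lie below 0, with Col3a1 on fibronectin replicate 2 at -0.46 and Col1a1 1388116_at on control replicate 1 at 0.51.

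Ratios of 2 members within an array remove any constant that multiplies the whole array. The ratio of Col1a1 1388116_at to Col1a2 1370155_at, on the deposited log2 scale and relative to its control mean, was -0.022 and -0.14 on fibronectin replicates 1 and 2, against 0.16 and -0.16 on the controls. As deposited, the fibronectin ratios of this pair of probe sets thus lay between those of the controls. After normalization they were -0.049 and -0.37 on fibronectin, against 0.30 and -0.30 on control, so fibronectin replicate 2 lay below both controls. The ratio of Col1a1 1370864_at to Col1a2 1387854_at was -0.68 and 0.017 on fibronectin, against 0.041 and -0.041 on control, as deposited. After normalization it was -0.76 and -0.21 on fibronectin, both below the 0.083 and -0.083 on control. The deposited ratio of Col3a1 to Col1a1 1388116_at was -0.63 and 0.70 on fibronectin replicates 1 and 2, against -0.052 and 0.052 on the controls. The fibronectin arrays thus departed from the controls in opposite directions. The deposited ratio of Pcolce to that Col1a1 probe set was 0.41 and 0.85 on fibronectin, above the -0.13 and 0.13 on control, and after normalization it was 0.66 and 1.45 against -0.37 and 0.37. The deposited ratio of Loxl1 to Lox 1368171_at was 0.67 and 1.20 on fibronectin, above the -0.45 and 0.45 on control. With Lox 1368172_a_at in its place the deposited ratio was 0.14 and 0.92 on fibronectin and 0.48 and -0.48 on control, so the groups overlapped. These ratios are descriptions and carry no test.

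Further genes of the pathway were described from lists of enzymes, chaperones and other fibrillar collagens. Of 27 genes for collagen synthesis and processing, 15 were on the array under their own symbol, each taken by its brightest probe set, and 14 were tested. In limma's test 0 passed in either direction at the Benjamini-Hochberg threshold, and 2 had an unadjusted p under 0.05, both lower on fibronectin, against 6.47% of all tested probe sets. The median difference over the 15 was 0.075, with 9 means higher and 6 lower. The fibronectin signals were both under the lower control for 3 genes and both over the higher control for 2, against 19.0% and 19.3% of all tested probe sets. As deposited the counts were 1 gene lower and 5 higher, against 12.6% and 20.5%.

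The 3 of 15 genes without overlap in the lower direction, near the 19.0% share of all tested probe sets, were P4hb, Serpinh1 and Plod2. P4hb, protein disulfide isomerase and the beta subunit of prolyl 4-hydroxylase, had log2 signals of 11.38 and 11.45 on fibronectin, against 12.23 and 11.99 on control, a difference of -0.69 (SE 0.25). Serpinh1, the collagen chaperone HSP47, had 11.42 and 11.31 on fibronectin, against 12.14 and 11.85 on control, a difference of -0.63 (SE 0.26). Its replicates lay close together in both groups, as those of P4hb did. Plod2, a lysyl hydroxylase that acts on collagen telopeptides, had 9.14 and 8.96 on fibronectin, against 9.88 and 9.55 on control, a difference of -0.67 (SE 0.31). Limma's Benjamini-Hochberg adjusted p was 0.726 for P4hb, 0.754 for Serpinh1 and 0.762 for Plod2. On the deposited scale the differences were -0.27, -0.23 and -0.57 in that order. There only P4hb stayed without overlap, while the groups of Serpinh1 and Plod2 overlapped. A second Serpinh1 probe set was too dim for the test, with log2 signals of 4.68 and 5.02 on fibronectin and 4.55 and 4.61 on control.

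The largest means in the other direction belonged to P3h3, of the prolyl 3-hydroxylase family, at 0.73 (SE 0.60). It was followed by Colgalt1, which adds galactose to hydroxylysine, at 0.50 (SE 0.34), and Fkbp10, a collagen chaperone, at 0.50 (SE 0.40). Each missed limma's Benjamini-Hochberg threshold, and the groups of P3h3 and Fkbp10 overlapped. Colgalt1 had 9.08 and 8.93 on fibronectin, against 8.74 and 8.26 on control. Its 2 dim probe sets were lower on fibronectin without overlap, by an amount not measured, since 1 had both fibronectin arrays and the other 1 of them at the floor. Bmp1, the protease that removes the carboxy-terminal propeptide and that Pcolce assists, differed by -0.12 (SE 0.41), with overlap. Of the 5 other fibrillar collagens in the list 4 were on the array and 2 were tested, with 0 past limma's Benjamini-Hochberg threshold and 0 at an unadjusted p under 0.05. The most negative difference there was that of Col27a1, at -0.93 (SE 0.88), with fibronectin replicate 2 at the floor.

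**Figure D4:**
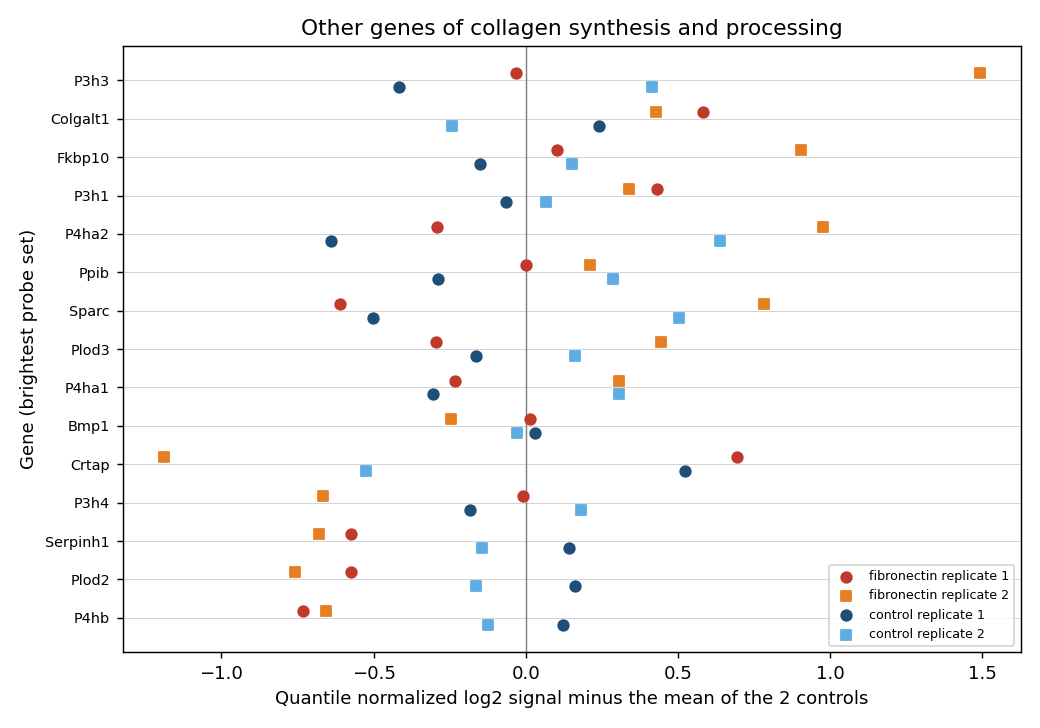
Quantile normalized log2 signal on each array minus the mean of the 2 controls for the 15 genes of the collagen synthesis and processing list, each by its brightest probe set, colours as in the plot of members by array. Both fibronectin points lie left of both control points for P4hb, Plod2 and Serpinh1 and right of them for P3h1 and Colgalt1.

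Markers of the cell types in the culture were set beside these values. Bulk arrays cannot tell fewer cells of a type from less RNA per cell. All 14 fibroblast markers in the list, which holds no collagen, were on the array, and 7 lay below both controls on both fibronectin arrays, with 2 above them and a median difference of -0.37. The shares over all tested probe sets were 19.0% and 19.3%, and as deposited the counts were 5 lower and 3 higher, against 12.6% and 20.5%. Their summed normalized intensity ran from 27343 to 30391 on fibronectin and from 26826 to 32724 on control. The brightest fibroblast markers, S100a4 and Vim, differed by 0.51 and -0.081. The most negative differences, named after their values were seen, were those of the matrix proteoglycans Dcn at -1.57 (SE 0.41) and Ogn at -1.56 (SE 0.33), followed by Postn at -0.93, Lum at -0.92 and the receptor Pdgfra at -0.83. Dcn, Ogn, Postn and Pdgfra were without overlap as deposited too. In the other direction Fbln2, at 0.64 (SE 0.29), and S100a4 were higher without overlap on both scales. At an unadjusted p under 0.05 limma's test gave 4 of the 14 markers, all lower, against 6.47% of all tested probe sets. The smallest Benjamini-Hochberg adjusted p from limma among the markers was 0.535, that of Ogn, so 0 passed. Of 14 cardiac myocyte markers 13 were present, with summed normalized intensities from 86739 to 88401 on fibronectin and from 81206 to 84899 on control. Their brightest members, Myl2 and Myh7, each differed by 0.11 after normalization, with overlap. As deposited these differed by 1.01 and 0.83 and were higher without overlap. Over the 13 markers the normalized counts without overlap were 3 higher and 1 lower, against 19.3% and 19.0% of all tested probe sets. As deposited the counts were 7 higher and 1 lower, against 20.5% and 12.6%.

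Smooth muscle markers, 6 of 6 on the array, summed to between 7506 and 9955 on fibronectin and between 6499 and 11557 on control. Over the 6 markers 4 means were higher and 2 lower. Only Cnn1, named after its value was seen, had an unadjusted p under 0.05 in limma's test, against 6.47% of all tested probe sets. It differed by 1.09 (SE 0.39) and was higher without overlap on both scales. Des and Acta2, the brightest of that list, differed by 0.23 and -0.49. Whether the Des signal came from smooth muscle cells or from myocytes was not tested. Leukocyte markers, 9 of 9, summed to between 1051 and 1199.8 on fibronectin and between 1531 and 1890.0 on control. Of these 9 markers 5 had a lower and 4 a higher mean on fibronectin. The brightest were Lgals3 at -0.66 and Cd68 at -0.47, and the groups of Cd68 overlapped. Lgals3 alone made up 445 and 518 of the sums on fibronectin replicates 1 and 2 and 663 and 868 on the controls. Endothelial markers, 5 of 7, summed to between 143 and 467 on fibronectin and between 203 and 338 on control. Their brightest members, Kdr and Emcn, differed by 0.26 and 0.24. Emcn was too dim for the test, with log2 signals of 7.51 and 4.71 on fibronectin replicates 1 and 2. No marker was at the floor on all 4 arrays. Only 6 of the 9 leukocyte and 1 of the 5 endothelial markers entered limma's test. In these lists 0 tested markers passed limma's Benjamini-Hochberg threshold, and the part of cell composition in the collagen values was not tested.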

How the data were processed

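The deposited table held 1 linear signal intensity per probe set and array. Neither the software that made these intensities nor its scaling target is given by the sources, and no detection calls were used. The 15875 probe sets were quantile normalized, 9 Affymetrix control probe sets were dropped, values were raised to the 20th percentile (23.4) and converted to log2, and the 40% with the lowest mean over all arrays were left out, leaving 9519. The test was limma 3.58.1 (R 4.3.3), using lmFit and then eBayes with its trend option, two-sided, with Benjamini-Hochberg adjustment over all tested probe sets. With 2 arrays against 2 the smallest exact permutation p is 0.333, and array number limits the precision. The fit was tested on simulated data. Symbols came from the platform annotation, which names 12783 probe sets with 1 symbol, 312 with several and 2771 with none.

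The members and gene lists were chosen with earlier results of these data known. All member probe sets are named, and of the pathway lists the 3 largest and 3 smallest differences plus Serpinh1, Bmp1 and P4hb, and of each marker list the brightest 2. Of the fibroblast markers Dcn, Ogn, Postn, Lum, Pdgfra and Fbln2, and of the smooth muscle markers Cnn1, are named as well, after their values were seen. Further settings were the deposited scale, a median shift, other filters and floors, no trend, the replicate number as a block, and each array left out.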

Additional observations from a re-analysis of the deposited data

How the results depend on the processing

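The count of collagen and maturation probe sets past the threshold was 0 in each setting run except the fit with the replicate number as a block. With that block 1 probe set passed, Col1a1 1388116_at at -0.78 with limma's Benjamini-Hochberg adjusted p = 0.0317, against 0.718 without it, and 234 of all tested probe sets passed, against 0. No label says that a number marks a shared culture or day. The deviations of same-numbered arrays from their group means correlated at 0.271 over the tested probe sets. Whether the numbers mark something shared was not tested. With 1 array left out, 0 to 337 of all tested probe sets passed, with 337 without fibronectin replicate 1, 5 without control replicate 1 and 3 without fibronectin replicate 2. Such fits take the spread of a single remaining array from the opposite group. Probe sets of the collagen set without overlap numbered 4, against 2 as deposited and 8 to 11 with 1 array left out, where fewer arrays overlap less often by construction. The median difference of -0.28 was 0.034 as deposited, -0.013 after a median shift and -0.093 with 1 probe set per gene, and ran from -0.40 to -0.038 with 1 array left out. On the deposited scale the sign turned for Col1a1 1370864_at (0.092) and Col1a2 1370155_at (0.034), and after the median shift for Col1a1 1370864_at (0.044). With 1 array left out the sign also turned for 7 probe sets. Col1a2 1387854_at ran from -0.16 to 0.23 and was negative without control replicate 1 or fibronectin replicate 2 (-0.10). Col3a1 ran from -1.50 to 0.055, positive without fibronectin replicate 1. Col5a1 1376099_at ran from -0.45 to 0.65, negative without fibronectin replicate 2. Lox 1368171_at ran from -1.07 to 0.0061, positive without control replicate 1, and Lox 1368172_a_at from -0.79 to 0.43, positive without control replicate 2 (0.21) or fibronectin replicate 2. Pcolce ran from -0.28 to 0.83, negative without control replicate 1 (-0.26) or fibronectin replicate 2. Plod1 ran from -0.091 to 0.54, negative without fibronectin replicate 2. The cause was not tested. Filters, the trend and the block leave a probe set's difference as it is. Of the 106 alternative values that did differ from the reported one, 13 turned their sign.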
